A study of Pyronema omphalodes CBS 100304 with 9 samples.

Results

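Cytochrome P450 genes were followed through 9 RNA-seq libraries of Pyronema omphalodes (also Pyronema confluens), a soil ascomycete whose fruiting bodies are small discs called apothecia. The genes were those whose annotation in the deposited table holds a P450 protein domain or whose product description contains cytochrome P450, with 1 match left out. They numbered 50 of 13369 gene models. A P450 domain was annotated in 47. The other 3 matched by description only, and 1 of these is the P450 reductase, a partner enzyme and not a P450. By description there were 2 sterol enzymes, 6 CYP52-like alkane or fatty acid hydroxylases, 1 oxylipin-producing oxygenase, 3 benzoate 4-monooxygenases, 7 pisatin demethylases, 8 ent-kaurene oxidases, 4 isotrichodermin C-15 hydroxylases, 2 enzymes like stcF, 7 members described as cytochrome P450 67, 8 with the name of an animal or plant P450, 1 with a domain but no described function, and the reductase.

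Cytochromes P450 are haem enzymes that use molecular oxygen to hydroxylate or otherwise oxidise small molecules. Most fungal ones sit in the membrane of the endoplasmic reticulum and take electrons from NADPH through a reductase, with cytochrome b5 as a second donor in some reactions. Fungi use them to finish ergosterol, to oxidise alkanes and fatty acids, to break down aromatic and toxic compounds, and to tailor secondary metabolites, whose genes often lie side by side in clusters. The names used here come from matches to proteins of other species and do not establish a substrate in this fungus.

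Protoapothecia, the young fruiting bodies, formed on slides coated with 150 µl of WPC medium in 0.8% agar and were taken after 4 d at 25 °C. They were fixed in cold ethanol and cut out by laser, and their RNA was amplified linearly (3 biological replicates, A, B and C). Mycelium was read in an earlier study from bulk RNA, with 2 libraries a group, each described as 1 of a pair of technical replicates. Sexual mycelium had grown on the surface under constant light, and vegetative mycelium (called dark mycelium here) on the surface in constant darkness, both in WPC medium with RNA of days 3, 4 and 5 pooled. The vegetative pool joined submerged cultures in light and in darkness in WPC with a dark surface culture in BMM medium, all at 3 d. The light condition of the slides was not stated. No agent, mutation or transgene was used, and no marker list for protoapothecia was applied. Laser cutting and amplification were used for protoapothecia alone, so tissue and preparation cannot be told apart, nor can fewer cells of a type and less RNA per cell.

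Libraries held 5583951 (protoapothecia B) to 24803660 (protoapothecia C) counts, and the other libraries at least 14265890. Levels are given as CPM, counts relative to a TMM-scaled library size, in the order A, B, C for protoapothecia and 1, 2 for each mycelium. Comparisons between groups used the quasi-likelihood test of edgeR, with adjustment by Benjamini-Hochberg over the 11787 genes tested, at a threshold of 0.05. A log2 fold change compares groups for 1 gene, and RPKM (CPM per kilobase of mRNA) compares genes. The p-values set a difference between groups against the spread within groups, estimated over all libraries in 1 fit. The spread of the mycelium pairs may be technical, and it enters every test, those of protoapothecia included. Members of 1 class share sequence, and how reads shared between such copies were counted is not given in the sources used here.

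Most P450 genes that differed between protoapothecia and mycelium were higher in protoapothecia. Of the 47 members tested, 28 were higher and 7 lower than in sexual mycelium, where 26.7% of all tested genes were higher and 34.5% lower. Against dark mycelium 26 were higher and 10 lower (36.4% and 32.8% of all genes). Against the vegetative pool 29 were higher and 9 lower (34.8% and 34.4% of all genes). The median log2 fold change over the members was 1.37, 1.29 and 1.62 in these comparisons, beside -0.14, 0.15 and 0.05 over all genes tested. These comparisons share the protoapothecium libraries. With RLE in place of TMM scaling the median of all genes moved up by 0.17, 0.11 and 0.18, and the members' median stood 1.53, 1.15 and 1.60 above it, against 1.51, 1.13 and 1.57 with TMM.

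Without regard to tests, the lowest protoapothecium library lay above the highest of the 6 mycelium libraries for 21 members, which was so for 24.3% of all tested genes. For 4 members every protoapothecium library lay below every mycelium library, as for 29.9% of all genes. The group mean was highest in protoapothecia for 26 members, in sexual mycelium for 7, in dark mycelium for 8 and in the vegetative pool for 6, where the shares over all genes were 37.9%, 22.3%, 20.3% and 19.5%. The 3 members below the filter were PCON_01094, described as benzoate 4-monooxygenase, and PCON_04460 and PCON_04461, neighbours 12 bases apart. None of these exceeded 0.581 CPM in any library, and each encodes a peptide of under 300 residues.

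**Figure D1:**
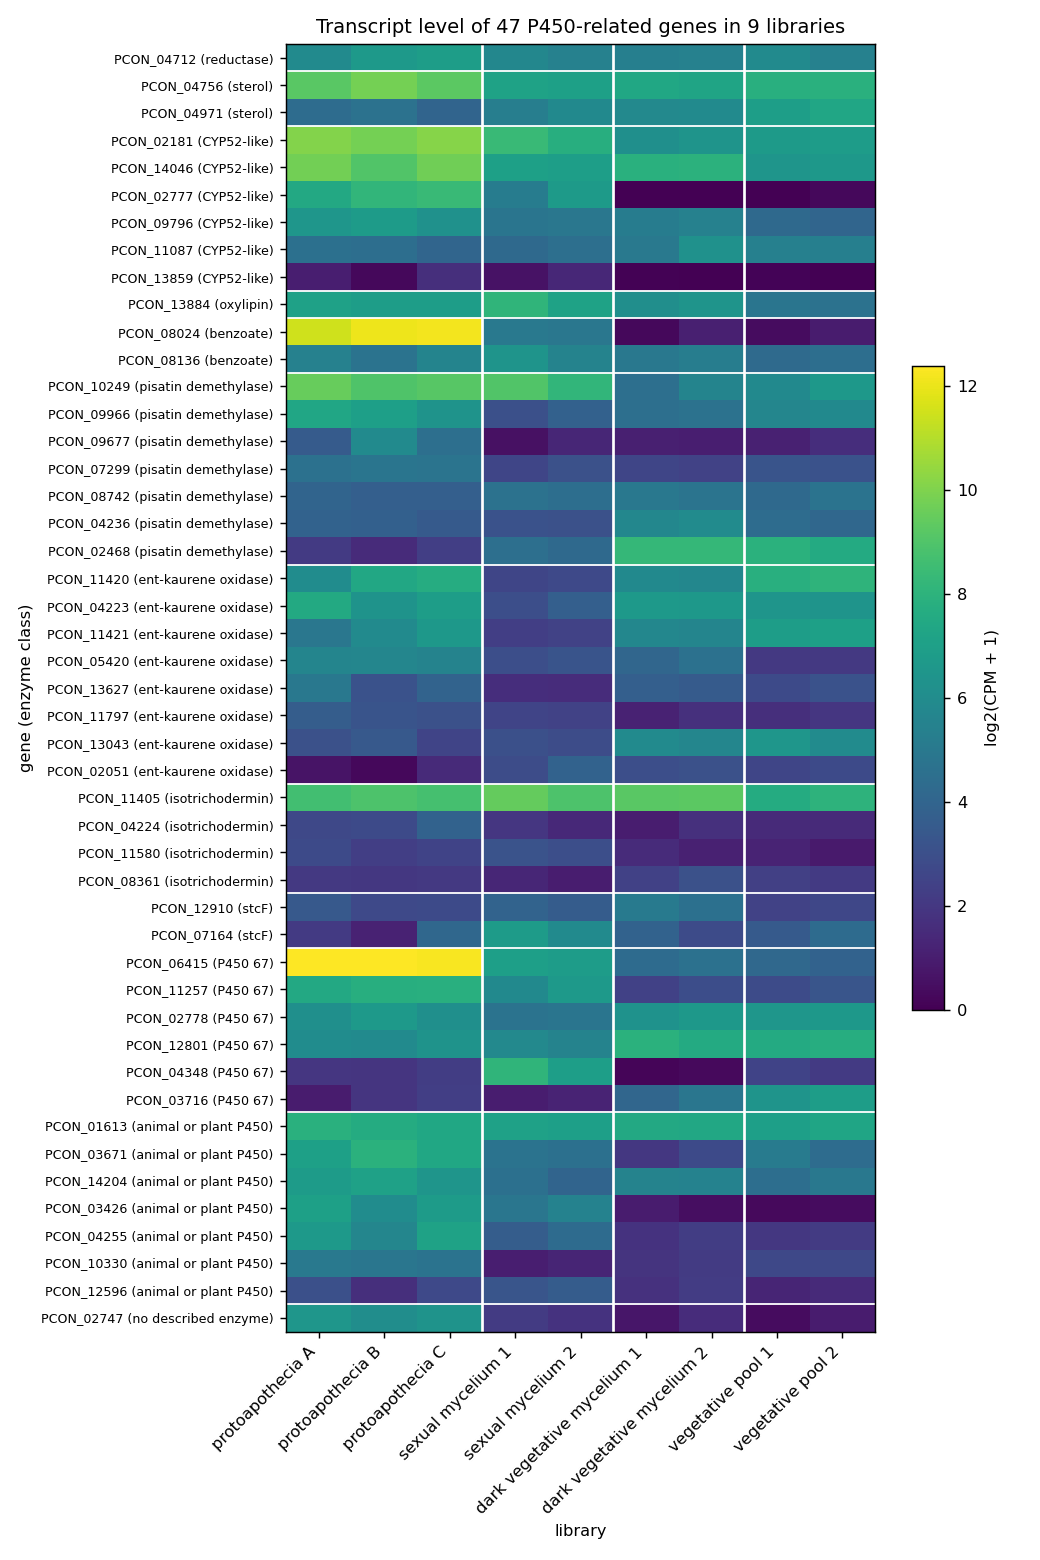
Level of each of the 47 tested P450-related genes (rows, grouped by enzyme class) in the 9 libraries (columns), as log2(CPM + 1) in colour. PCON_06415 and PCON_08024 are brightest in the protoapothecium columns, and PCON_02777 is dark in the 4 vegetative columns.

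The whole set took 1.17%, 1.29% and 1.29% of all counts in protoapothecia A, B and C. Its share was 0.415% and 0.312% in sexual mycelium, 0.284% and 0.295% in dark mycelium and 0.261% and 0.281% in the vegetative pool, so the protoapothecium libraries lay above all others. A pair of genes, PCON_06415 and PCON_08024, made up 58%, 62.4% and 60.7% of the P450 counts in the protoapothecium libraries. Without them the share was 0.493%, 0.485% and 0.507% in protoapothecia and 0.259% to 0.396% in mycelium, which still did not overlap. In RPKM these were the leading members in protoapothecia, at 2843 and 1944, ranks 38 and 60 of the 13369 genes. PCON_11405 led in sexual mycelium and dark mycelium (314 and 319 RPKM) and PCON_11420 in the vegetative pool (146 RPKM).

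**Figure D2:**
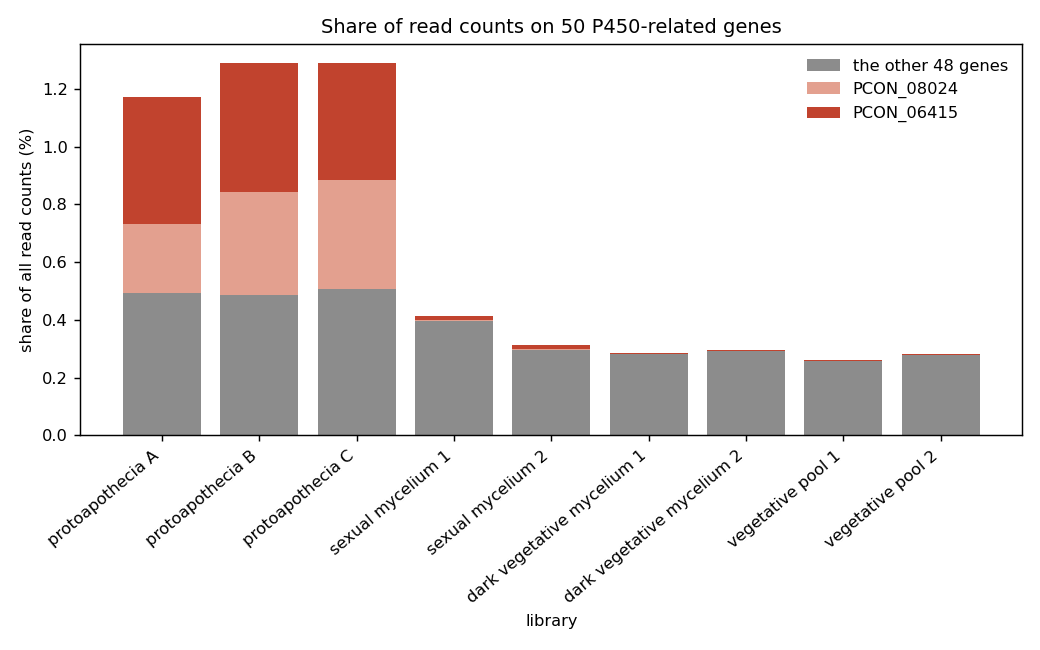
Share of all read counts (percent) that fell on the 50 P450-related genes in each library, split into PCON_06415, PCON_08024 and the other 48. The protoapothecium bars reach 1.17% to 1.29% and the mycelium bars 0.261% to 0.415%.

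The electron supply of the P450s was represented by PCON_04712, the NADPH-cytochrome P450 reductase (scaffold 167, 106454 to 109179, minus strand, 3 exons). It stood at 60, 105 and 118 CPM in protoapothecia, 52.2 and 42.3 in sexual mycelium, 39.6 and 42.6 in dark mycelium, and 59.2 and 42.1 in the vegetative pool. The lowest protoapothecium library, A, lay just above the highest mycelium library. The differences were modest: log2 fold change 0.99 with SE 0.315, edgeR adjusted p = 0.0212, against sexual mycelium, log2 fold change 1.20 with SE 0.318, edgeR adjusted p = 0.00798, against dark mycelium and log2 fold change 0.90 with SE 0.314, edgeR adjusted p = 0.0288, against the vegetative pool. The first call was lost without either sexual mycelium library (edgeR adjusted p = 0.0606 to 0.139), the next without dark mycelium 1 (edgeR adjusted p = 0.0543) and the last without protoapothecia C or vegetative pool 2 (edgeR adjusted p = 0.0606 to 0.189). Among the 8 genes listed as cytochrome b5, its reductases and their kin, the median log2 fold change against sexual mycelium was -0.68. In protoapothecia 1 was higher and 4 were lower than in sexual mycelium (26.7% and 34.5% of all genes). They counted 1 higher and 3 lower against dark mycelium (36.4% and 32.8% of all genes) and 1 and 5 against the vegetative pool (34.8% and 34.4%). The 1 higher gene became 0 without sexual mycelium 1 and 2 without protoapothecia A or C in the first of these, and 0 without either vegetative pool library in the last, where the 5 lower became 3 without vegetative pool 1. PCON_07519, a cytochrome b5 reductase, stood at 6.07, 6.84 and 3.21 CPM in protoapothecia, 30.8 and 37.5 in sexual mycelium, 49.4 and 45.5 in dark mycelium, and 45.6 and 48.3 in the vegetative pool. Its protoapothecium values lay below all others (log2 fold change -2.70 with SE 0.319, edgeR adjusted p = 9.49e-05, against sexual mycelium). PCON_12225, NADH-cytochrome b5 reductase 2, fell likewise (log2 fold change -1.86 with SE 0.255, edgeR adjusted p = 0.000224), as did PCON_05506, listed by its domain and of unknown function (log2 fold change -2.21 with SE 0.388, edgeR adjusted p = 0.000999).

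The sterol P450s moved in opposite directions. PCON_04756 (scaffold 168, 115274 to 117812, plus strand, 5 exons) is described as cytochrome P450 61, which in yeasts and other fungi introduces the C-22 double bond late in ergosterol synthesis. It stood at 590, 885 and 626 CPM in protoapothecia, 142 and 133 in sexual mycelium, 166 and 149 in dark mycelium, and 224 and 232 in the vegetative pool. The protoapothecium libraries lay above all the mycelium ones, and the gene rose against sexual mycelium (log2 fold change 2.35 with SE 0.248, edgeR adjusted p = 4.81e-05), dark mycelium (log2 fold change 2.16 with SE 0.245, edgeR adjusted p = 5.08e-05) and the vegetative pool (log2 fold change 1.62 with SE 0.239, edgeR adjusted p = 0.000257). PCON_04971 (scaffold 188, 90224 to 92256, plus strand, 4 exons) is described as lanosterol 14-alpha demethylase, which removes a methyl group from lanosterol early in the pathway and is the target of azole fungicides. It stood at 19.8, 24.8 and 14.8 CPM in protoapothecia, 38.3 and 57.9 in sexual mycelium, 56.7 and 60.8 in dark mycelium, and 123 and 162 in the vegetative pool. Its protoapothecium libraries lay below all the mycelium ones, and the vegetative pool was highest. It fell against sexual mycelium (log2 fold change -1.29 with SE 0.28, edgeR adjusted p = 0.0032), dark mycelium (log2 fold change -1.58 with SE 0.28, edgeR adjusted p = 0.000805) and the vegetative pool (log2 fold change -2.86 with SE 0.285, edgeR adjusted p = 2.5e-05).

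The other 11 listed ergosterol genes had a median log2 fold change of 1.23 in protoapothecia against sexual mycelium. They counted 8 higher and 2 lower (26.7% and 34.5% of all genes). The 2 became 1 without sexual mycelium 2. Against dark mycelium 6 were higher and 3 lower (36.4% and 32.8% of all genes), and against the vegetative pool 3 and 5 (34.8% and 34.4%). Without protoapothecia B or C the 3 lower against dark mycelium became 2. Against the pool the 3 higher became 4 without protoapothecia A, and the 5 lower became 4 without protoapothecia C. Lanosterol synthase, PCON_13554, which closes the ring just before the demethylase step, stood at 728, 1073 and 1247 CPM in protoapothecia, 66.8 and 60.7 in sexual mycelium, 117 and 111 in dark mycelium, and 136 and 152 in the vegetative pool. The protoapothecium values lay above all others (log2 fold change 3.99 with SE 0.297, edgeR adjusted p = 7.97e-06, against sexual mycelium). Squalene monooxygenase, PCON_03325, stood at 159, 279 and 202 CPM in protoapothecia, 35 and 30.4 in sexual mycelium, 29.6 and 33.4 in dark mycelium, and 127 and 170 in the vegetative pool. It was higher than in sexual mycelium (log2 fold change 2.70 with SE 0.296, edgeR adjusted p = 6.28e-05), and protoapothecium A lay below vegetative pool 2. Squalene synthase, PCON_11727, also rose (log2 fold change 1.94 with SE 0.241, edgeR adjusted p = 0.00012). Between the mycelia, sexual mycelium had 9 of the 11 lower than the vegetative pool, as had 9.48% of all genes. The 9 became 4 or 5 without sexual mycelium 1 or 2 and 5 without vegetative pool 2.

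**Figure D3:**
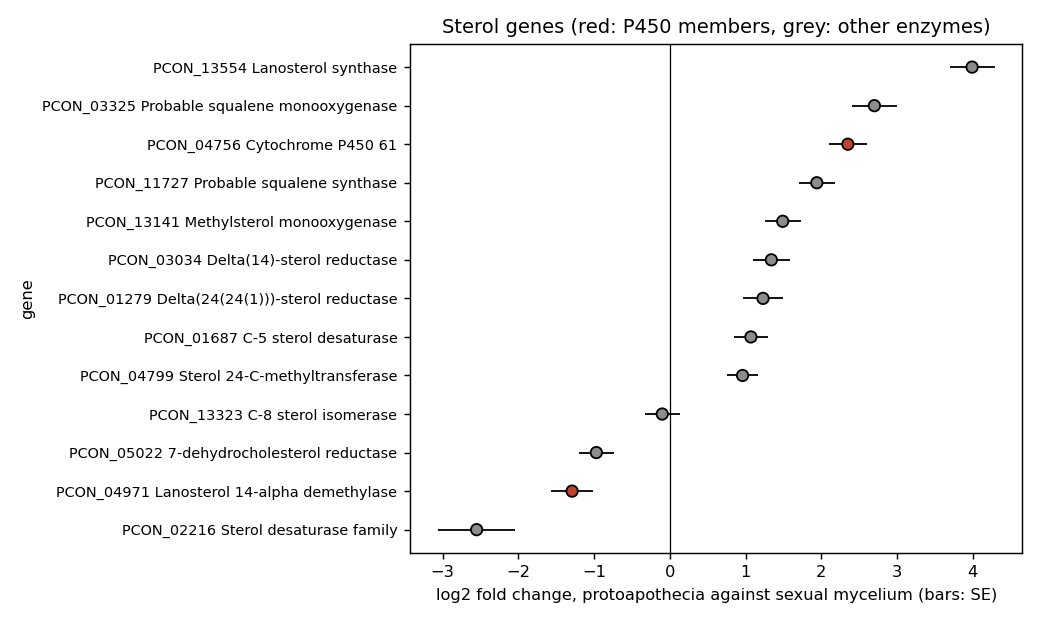
Log2 fold change of each sterol gene in protoapothecia against sexual mycelium (x axis, bars are SE), with the P450 members in red and the other listed enzymes in grey. Cytochrome P450 61 stands at 2.35 among the higher genes and lanosterol 14-alpha demethylase at -1.29 among the lower.

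Of the 6 CYP52-like genes, named after alkane and fatty acid hydroxylases of Candida yeasts, 4 exceeded sexual mycelium in protoapothecia and none was lower. Against either vegetative group 5 were higher and 1 lower. The shares of all genes were 26.7% higher and 34.5% lower against sexual mycelium, 36.4% and 32.8% against dark mycelium, and 34.8% and 34.4% against the pool. PCON_02181 (scaffold 1216, 33041 to 35338, minus strand, 4 exons) stood at 1097, 880 and 1145 CPM in protoapothecia, 334 and 220 in sexual mycelium, 71.2 and 85.3 in dark mycelium, and 108 and 115 in the vegetative pool. The groups fell in that order without overlap between protoapothecia, sexual mycelium and the vegetative groups (log2 fold change 1.91 with SE 0.26, edgeR adjusted p = 0.000215, against sexual mycelium, and log2 fold change 3.73 with SE 0.287, edgeR adjusted p = 5.22e-06, against dark mycelium). PCON_14046 stood at 860, 516 and 838 CPM in protoapothecia, 129 and 123 in sexual mycelium, 231 and 245 in dark mycelium, and 87.5 and 97.4 in the vegetative pool. Protoapothecia were highest, with dark mycelium next (log2 fold change 2.55 with SE 0.275, edgeR adjusted p = 5.64e-05, against sexual mycelium). PCON_09796 stood at 91.3, 111 and 75.3 CPM in protoapothecia, 27.1 and 28.7 in sexual mycelium, 35.6 and 42.5 in dark mycelium, and 17.8 and 15.6 in the vegetative pool. It showed the same order of protoapothecia first and dark mycelium second (log2 fold change 1.73 with SE 0.243, edgeR adjusted p = 0.000259, against sexual mycelium).

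PCON_02777 (scaffold 129, 90504 to 92002, minus strand, 2 exons) was all but silent in vegetative mycelium. It stood at 177, 287 and 342 CPM in protoapothecia, 36.2 and 108 in sexual mycelium, 0 and 0 in dark mycelium, and 0 and 0.196 in the vegetative pool. Dark mycelium gave no count in either library and the vegetative pool 3 counts in all, while protoapothecia gave 11819 and sexual mycelium 3638. With dark mycelium set to a floor of 3 counts for the group as a whole, its level was at least 2719-fold higher in protoapothecia and at least 729-fold higher in sexual mycelium than in dark mycelium. Against the vegetative pool the ratio was 3193 for protoapothecia (exact 95% interval 1092 to 15485) and 930 for sexual mycelium (318 to 4513), where intervals and floor cover counting error only. Protoapothecia exceeded sexual mycelium (log2 fold change 1.90 with SE 0.558, edgeR adjusted p = 0.0175), a call that was lost without sexual mycelium 1 (edgeR adjusted p = 0.113). Its log2 fold change was 1.31 without that library and 2.90 without sexual mycelium 2. PCON_13859, a low CYP52-like gene of 338 residues, had 65 counts in protoapothecia and 53 in sexual mycelium, but 1 in dark mycelium and 2 in the vegetative pool. The exception in the class, PCON_11087, stood at 23.2, 21.4 and 15.4 CPM in protoapothecia, 17.7 and 22.3 in sexual mycelium, 31.7 and 75.8 in dark mycelium, and 41.2 and 39.6 in the vegetative pool. Protoapothecia and sexual mycelium overlapped and dark mycelium 2 was highest (log2 fold change -1.43 with SE 0.359, edgeR adjusted p = 0.0059, protoapothecia against dark mycelium). That call was lost without dark mycelium 2 (log2 fold change -0.67, edgeR adjusted p = 0.146), and the one against the vegetative pool without protoapothecia C or either vegetative pool library (edgeR adjusted p = 0.0846 to 0.103).

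PCON_13884 is described as psi-producing oxygenase A, an enzyme of Aspergillus with a peroxidase and a P450 part that makes oxylipins controlling the balance of sexual and asexual spores. It stood at 137, 119 and 118 CPM in protoapothecia, 276 and 138 in sexual mycelium, 69.9 and 84.8 in dark mycelium, and 27 and 24.9 in the vegetative pool. Sexual mycelium 1 was highest and the vegetative pool lowest, and sexual mycelium 2 lay next to protoapothecium A. It was higher in protoapothecia than in the vegetative pool (log2 fold change 2.27 with SE 0.31, edgeR adjusted p = 0.000166). Its call against sexual mycelium, log2 fold change -0.73 with SE 0.279, edgeR adjusted p = 0.0456, was lost without any protoapothecium library, sexual mycelium 1, either dark mycelium library or either vegetative pool library (edgeR adjusted p = 0.0654 to 0.672).

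Benzoate 4-monooxygenases hydroxylate benzoate at the para position, a step in the breakdown of aromatic acids. PCON_08024 (scaffold 365, 69134 to 71341, plus strand, 4 exons) stood at 2911, 4284 and 4620 CPM in protoapothecia, 31.2 and 29.4 in sexual mycelium, 0.202 and 1.16 in dark mycelium, and 0.331 and 0.916 in the vegetative pool. The 3 protoapothecium libraries lay far above the rest, sexual mycelium was intermediate and the vegetative libraries were close to 0. Its log2 fold changes in protoapothecia were the largest of any member against sexual mycelium (log2 fold change 7.02 with SE 0.617, edgeR adjusted p = 1.79e-05) and, among members with more than 3 counts in the lower group, against dark mycelium (log2 fold change 12.47 with SE 0.79, edgeR adjusted p = 2.13e-06) and the vegetative pool (log2 fold change 12.67 with SE 0.796, edgeR adjusted p = 2.12e-06). Sexual mycelium also exceeded both vegetative groups (log2 fold change 5.45 with SE 0.639, edgeR adjusted p = 0.000295, and log2 fold change 5.65 with SE 0.644, edgeR adjusted p = 0.000273). Dark mycelium 1 held 3 counts of it and dark mycelium 2 held 18, and the folds against the vegetative groups moved with single libraries. The log2 fold change of PCON_08024 in protoapothecia against dark mycelium was 11.73 without dark mycelium 1 and 14.20 without dark mycelium 2, and against the pool 12.06 without vegetative pool 1 and 13.51 without vegetative pool 2. For sexual mycelium the values were 4.68 and 7.18 against dark mycelium and 5.03 and 6.49 against the pool. Elongation factor 1-gamma, PCON_08025, lies 4 bases away and stood at 4788, 3663 and 3512 CPM in protoapothecia, 1074 and 1372 in sexual mycelium, 1307 and 1743 in dark mycelium, and 1383 and 2525 in the vegetative pool. It was expressed in every mycelium library in which PCON_08024 was close to 0, and its protoapothecium libraries too lay above every mycelium library. Whether reads at the border of these genes were counted for the wrong one was not tested. PCON_08136 stood at 43.3, 25.7 and 47.3 CPM in protoapothecia, 83 and 45.1 in sexual mycelium, 29.9 and 37.5 in dark mycelium, and 18.4 and 21.6 in the vegetative pool. Sexual mycelium 1 was highest and the vegetative pool lowest (log2 fold change 0.96 with SE 0.35, edgeR adjusted p = 0.0335, protoapothecia against the vegetative pool), a call lost without protoapothecia A or C or either vegetative pool library (edgeR adjusted p = 0.0653 to 0.161).

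Pisatin demethylases are known from plant pathogenic Fusarium, where they detoxify a pea phytoalexin. Of the 7 genes so described, 4 were higher and 2 lower in protoapothecia when set against sexual mycelium, 4 and 3 against dark mycelium, and 4 and 2 against the vegetative pool. In the same order, the shares of all genes were 26.7% and 34.5%, 36.4% and 32.8%, and 34.8% and 34.4%. PCON_10249 stood at 729, 500 and 582 CPM in protoapothecia, 530 and 288 in sexual mycelium, 21.9 and 47.6 in dark mycelium, and 57.7 and 95.5 in the vegetative pool. Protoapothecia and sexual mycelium overlapped, and both lay above the vegetative groups (log2 fold change 4.12 with SE 0.478, edgeR adjusted p = 5.96e-05, protoapothecia against dark mycelium, and log2 fold change 3.56 with SE 0.479, edgeR adjusted p = 0.000609, sexual against dark mycelium). Without dark mycelium 2 these log2 fold changes were 4.78 and 4.22. PCON_09966 stood at 161, 128 and 81.5 CPM in protoapothecia, 7.1 and 13.4 in sexual mycelium, 21.8 and 24.1 in dark mycelium, and 51.3 and 57.2 in the vegetative pool. Protoapothecia were highest and sexual mycelium lowest (log2 fold change 3.59 with SE 0.395, edgeR adjusted p = 6.47e-05). The call against the vegetative pool (log2 fold change 1.19 with SE 0.349, edgeR adjusted p = 0.0131) was lost without either vegetative pool library (edgeR adjusted p = 0.0524 to 0.0802). PCON_07299 stood at 24, 27.4 and 26.5 CPM in protoapothecia, 5.04 and 7.31 in sexual mycelium, 4.99 and 4.52 in dark mycelium, and 8.41 and 7.85 in the vegetative pool. The protoapothecium libraries lay above all mycelium ones, and none of the tests between mycelium groups passed (log2 fold change 2.07 with SE 0.319, edgeR adjusted p = 0.000447, against sexual mycelium). PCON_09677 stood at 10.9, 59.9 and 22.3 CPM in protoapothecia, 0.48 and 1.54 in sexual mycelium, 1.15 and 1.03 in dark mycelium, and 1.18 and 2.09 in the vegetative pool. Protoapothecium B was far above A and C, and all 3 lay above mycelium (log2 fold change 4.90 with SE 0.875, edgeR adjusted p = 0.00108, against sexual mycelium). Its log2 fold change was 4.03 without protoapothecia B, 4.31 without sexual mycelium 1 and 5.98 without sexual mycelium 2.

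PCON_02468 (scaffold 124, 86326 to 89020, minus strand, 6 exons) was the reverse. It stood at 3.24, 1.92 and 3.86 CPM in protoapothecia, 22.3 and 17.8 in sexual mycelium, 309 and 304 in dark mycelium, and 239 and 193 in the vegetative pool. The vegetative groups were high, sexual mycelium intermediate and protoapothecia lowest, with no overlap between these 3 levels (log2 fold change -6.60 with SE 0.3, edgeR adjusted p = 7.85e-07, protoapothecia against dark mycelium, and log2 fold change -2.66 with SE 0.269, edgeR adjusted p = 3.87e-05, against sexual mycelium). PCON_04236 stood at 13.9, 13 and 10.4 CPM in protoapothecia, 7.63 and 7.31 in sexual mycelium, 52.5 and 62.8 in dark mycelium, and 19.7 and 16.7 in the vegetative pool. Dark mycelium was highest and sexual mycelium lowest (log2 fold change -2.21 with SE 0.252, edgeR adjusted p = 5.11e-05, protoapothecia against dark mycelium). Its higher call against sexual mycelium (log2 fold change 0.74 with SE 0.261, edgeR adjusted p = 0.0341) was lost without protoapothecia A, either sexual mycelium library, either dark mycelium library or either vegetative pool library (edgeR adjusted p = 0.0548 to 0.138). PCON_08742 stood at 14.8, 12.4 and 12.5 CPM in protoapothecia, 24.5 and 21.1 in sexual mycelium, 30.3 and 26.3 in dark mycelium, and 17.7 and 25 in the vegetative pool. Every protoapothecium library lay below every mycelium library (log2 fold change -1.09 with SE 0.266, edgeR adjusted p = 0.00493, against dark mycelium). The calls were lost without dark mycelium 1 (edgeR adjusted p = 0.0548) for dark mycelium, without protoapothecia C, either sexual mycelium library or either dark mycelium library (edgeR adjusted p = 0.0553 to 0.155) for sexual mycelium and without protoapothecia B or C, either sexual mycelium library, either dark mycelium library or vegetative pool 2 (edgeR adjusted p = 0.0615 to 0.336) for the vegetative pool. Its neighbour PCON_08741, 314 bases away and described as an uncharacterised monooxygenase, moved the other way: it stood at 422, 235 and 319 CPM in protoapothecia, 33.1 and 55.4 in sexual mycelium, 62.8 and 59.6 in dark mycelium, and 52.7 and 46 in the vegetative pool (log2 fold change 2.88 with SE 0.333, edgeR adjusted p = 8.54e-05, against sexual mycelium).

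**Figure D4:**
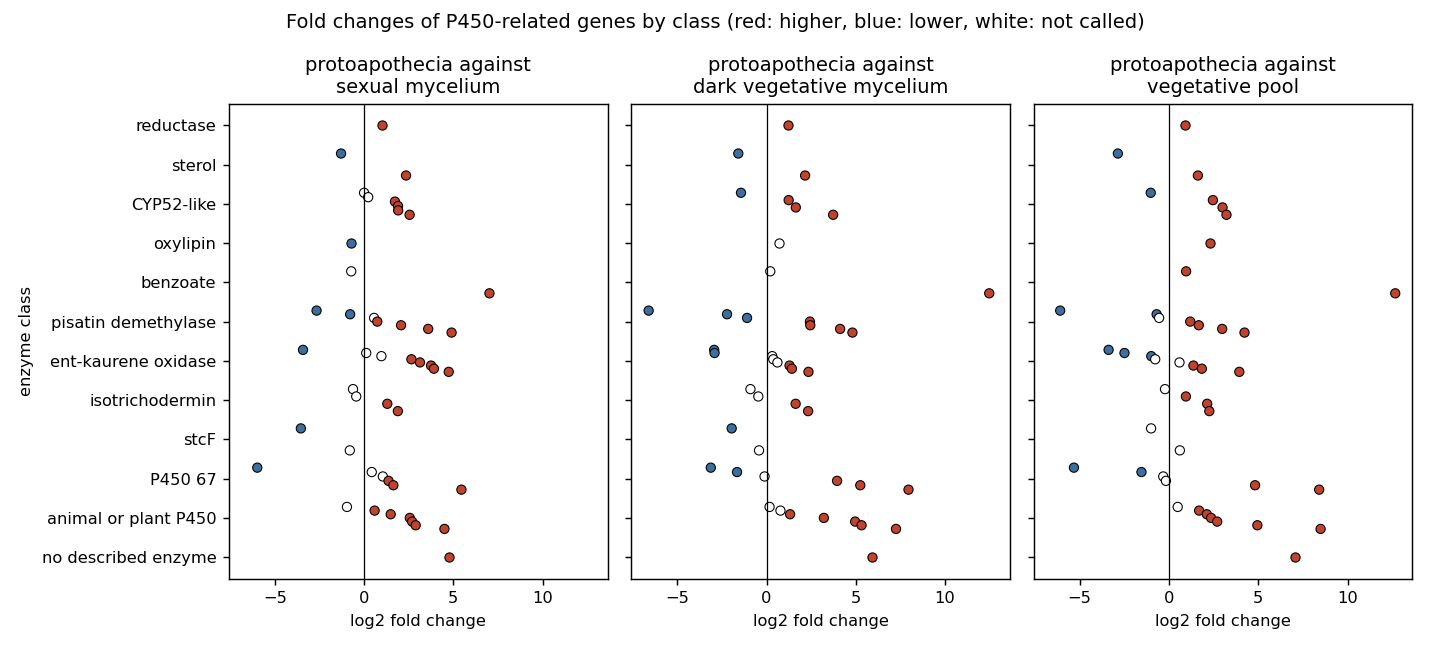
Log2 fold change (x axis) of each member by enzyme class (y axis), for protoapothecia against each mycelium group, with genes called higher in red, lower in blue and not called in white. Members with 3 or fewer counts in the mycelium group are not drawn. PCON_08024 (benzoate) is farthest right at 7.02, 12.47 and 12.67, and PCON_02468 (pisatin demethylase) is farthest left in the dark mycelium and vegetative pool panels at -6.60 and -6.09.

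Ent-kaurene oxidases are known from gibberellin synthesis in Fusarium fujikuroi and in plants. Of the 8 genes so described, protoapothecia had 5 higher and 1 lower against sexual mycelium (26.7% and 34.5% of all genes). Against dark mycelium 3 were higher and 2 lower (36.4% and 32.8%), and against the vegetative pool 3 and 3 (34.8% and 34.4%). Sexual mycelium in turn had none higher and 6 lower than dark mycelium (20.6% and 9% of all genes). It had 1 higher and 5 lower than the vegetative pool (19.8% and 9.48%). The pattern was led by PCON_11420 (scaffold 604, 42591 to 44514, minus strand, 5 exons) and PCON_11421 (scaffold 604, 45478 to 47481, plus strand, 3 exons), which lie head to head with 963 bases between them. PCON_11420 stood at 63.8, 171 and 201 CPM in protoapothecia, 5.08 and 5.74 in sexual mycelium, 57.1 and 51.5 in dark mycelium, and 228 and 266 in the vegetative pool. PCON_11421 stood at 29.5, 60.7 and 98.1 CPM in protoapothecia, 3.88 and 4.46 in sexual mycelium, 52.4 and 48.1 in dark mycelium, and 119 and 130 in the vegetative pool. In both, sexual mycelium was lowest and the vegetative pool highest, and protoapothecia varied widely among themselves, with A lowest.

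Both rose in protoapothecia against sexual mycelium (log2 fold change 4.74 with SE 0.504, edgeR adjusted p = 5.22e-05, for PCON_11420, and log2 fold change 3.91 with SE 0.489, edgeR adjusted p = 0.000131, for PCON_11421). Sexual mycelium lay below dark mycelium (log2 fold change -3.32 with SE 0.486, edgeR adjusted p = 0.00092, and log2 fold change -3.59 with SE 0.498, edgeR adjusted p = 0.000711). Against dark mycelium the higher call of PCON_11420 in protoapothecia (log2 fold change 1.42 with SE 0.42, edgeR adjusted p = 0.0135) was lost without either dark mycelium library (edgeR adjusted p = 0.0556 to 0.0793), and against the vegetative pool the lower call of PCON_11421 (log2 fold change -0.99 with SE 0.399, edgeR adjusted p = 0.0496) was lost without protoapothecia A or B, either sexual mycelium library, either dark mycelium library or either vegetative pool library (edgeR adjusted p = 0.0664 to 0.158). The raw counts of PCON_11420 exceeded those of PCON_11421 by a ratio of 2.16, 2.81 and 2.05 in protoapothecia, 1.31 and 1.29 in sexual mycelium, 1.09 and 1.07 in dark mycelium and 1.91 and 2.04 in the vegetative pool.

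Genes on either side of the pair also had their lowest mean in sexual mycelium. They are named because they lie beside it, and the stretch shown was chosen after its values were seen. PCON_11419, a copalyl diphosphate synthase, the enzyme type that makes the precursor of ent-kaurene, stood at 4.13, 12.4 and 20.7 CPM in protoapothecia, 4.17 and 5.06 in sexual mycelium, 49.6 and 30.8 in dark mycelium, and 99.1 and 105 in the vegetative pool. Protoapothecium A lay below both sexual mycelium libraries and the vegetative pool was highest (log2 fold change -3.04 with SE 0.536, edgeR adjusted p = 0.000787, protoapothecia against the vegetative pool). It was not called against sexual mycelium (log2 fold change 1.42 with SE 0.566, edgeR adjusted p = 0.0523). PCON_11422, described as bifunctional solanapyrone synthase, stood at 12.7, 18.8 and 36.9 CPM in protoapothecia, 4.84 and 5.62 in sexual mycelium, 38.1 and 33.4 in dark mycelium, and 73.7 and 78.7 in the vegetative pool. It was lowest in sexual mycelium (log2 fold change 2.13 with SE 0.429, edgeR adjusted p = 0.00216, protoapothecia against it). PCON_11423, an aldehyde reductase named after one acting on aflatoxin B1, rose (log2 fold change 3.48 with SE 0.448, edgeR adjusted p = 0.000156). PCON_11424, with no described function, rose (log2 fold change 3.60 with SE 0.264, edgeR adjusted p = 7.28e-06). The next genes on the other side, PCON_11417 and PCON_11418, lay within 28 to 56.9 CPM and 7.21 to 19.2 CPM over all libraries. PCON_11417 was called higher in protoapothecia than in sexual mycelium (log2 fold change 0.66 with SE 0.236, edgeR adjusted p = 0.0362) and dark mycelium (log2 fold change 0.60 with SE 0.237, edgeR adjusted p = 0.0447), and PCON_11418 than in dark mycelium (log2 fold change 0.89 with SE 0.343, edgeR adjusted p = 0.0421). Each of these calls was lost without protoapothecia A or any 1 mycelium library (edgeR adjusted p = 0.0542 to 0.219). The log2 fold change of PCON_11419 against the vegetative pool was -3.69 without protoapothecia C.

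**Figure D5:**
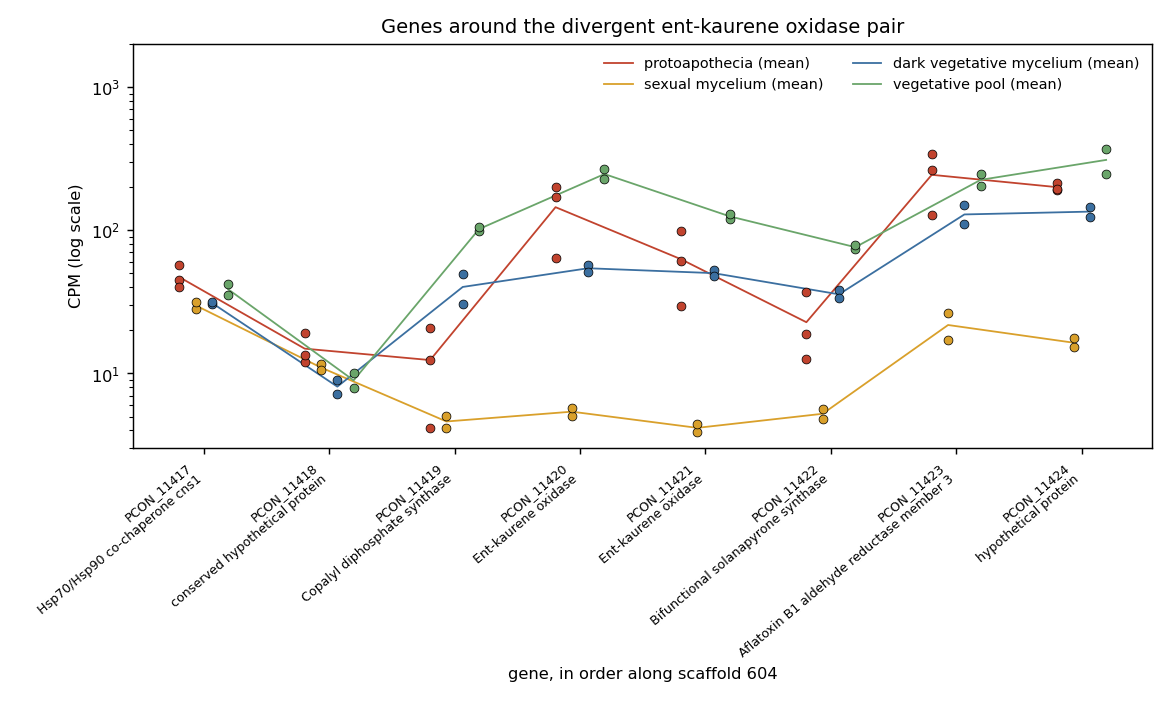
CPM on a log axis for 8 neighbouring genes of scaffold 604, in order along it, with points for libraries and lines for group means. From PCON_11419 to PCON_11424 the sexual mycelium line lies lowest, at means of 4.17 to 21.8 CPM, while PCON_11417 and PCON_11418 stay within 28 to 56.9 and 7.21 to 19.2 CPM.

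The other ent-kaurene oxidases did not share 1 pattern. PCON_04223 stood at 185, 81.1 and 120 CPM in protoapothecia, 6.76 and 12.3 in sexual mycelium, 100 and 97.7 in dark mycelium, and 86 and 85.5 in the vegetative pool. Sexual mycelium was lowest, and protoapothecia overlapped the vegetative groups (log2 fold change 3.75 with SE 0.419, edgeR adjusted p = 7.13e-05, protoapothecia against sexual mycelium). PCON_05420 stood at 49.1, 50.9 and 45.5 CPM in protoapothecia, 6.95 and 8.43 in sexual mycelium, 15.9 and 23.8 in dark mycelium, and 3.17 and 3.14 in the vegetative pool. Protoapothecia were highest (log2 fold change 2.65 with SE 0.293, edgeR adjusted p = 6.33e-05, against sexual mycelium, and log2 fold change 3.94 with SE 0.317, edgeR adjusted p = 6.85e-06, against the vegetative pool). PCON_13627 stood at 30.5, 7.7 and 14.6 CPM in protoapothecia, 2.11 and 1.95 in sexual mycelium, 12.5 and 10.9 in dark mycelium, and 5.91 and 7.85 in the vegetative pool. Protoapothecium A was highest and sexual mycelium lowest (log2 fold change 3.13 with SE 0.586, edgeR adjusted p = 0.00141), and the call against the vegetative pool (log2 fold change 1.37 with SE 0.533, edgeR adjusted p = 0.0432) was lost without protoapothecia A, either sexual mycelium library, either dark mycelium library or either vegetative pool library (edgeR adjusted p = 0.0579 to 0.194). Without protoapothecia A its log2 fold changes were 2.49 against sexual mycelium and 0.73 against the pool. PCON_13627 was also called lower in sexual mycelium than in the pool, which was lost without protoapothecia C (log2 fold change -1.75, edgeR adjusted p = 0.0515). With 1 library left out at a time, that log2 fold change ran from -1.95 to -1.54. For PCON_05420 it ran from -1.64 to -1.05 in sexual against dark mycelium, and from 1.14 to 1.42 against the pool. PCON_13043 stood at 7.37, 10.1 and 4.8 CPM in protoapothecia, 7.05 and 6.3 in sexual mycelium, 59.4 and 51.2 in dark mycelium, and 89.3 and 61.1 in the vegetative pool. It was low in protoapothecia and sexual mycelium and high in both vegetative groups (log2 fold change -2.93 with SE 0.326, edgeR adjusted p = 4.57e-05, protoapothecia against dark mycelium). PCON_02051 stood at 0.548, 0.214 and 1.78 CPM in protoapothecia, 6.47 and 14 in sexual mycelium, 6.94 and 7.42 in dark mycelium, and 4.96 and 5.82 in the vegetative pool. Protoapothecia lay below every mycelium library (log2 fold change -3.42 with SE 0.656, edgeR adjusted p = 0.00161, against sexual mycelium). Its log2 fold change was -4.46 without protoapothecia C and -2.77 without sexual mycelium 2. PCON_11797 reached 7.32 to 11.5 CPM in protoapothecia and 1.28 to 4.75 CPM in mycelium (log2 fold change 2.35 with SE 0.463, edgeR adjusted p = 0.00148, against dark mycelium).

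Isotrichodermin C-15 hydroxylase acts in trichothecene toxin synthesis of Fusarium. Of the 4 genes with this description, PCON_11405 (scaffold 604, 4681 to 6724, minus strand, 3 exons) stood at 393, 495 and 431 CPM in protoapothecia, 702 and 488 in sexual mycelium, 599 and 610 in dark mycelium, and 198 and 258 in the vegetative pool. It was the leading P450 gene by RPKM in sexual and dark mycelium, and protoapothecia passed no test against sexual or dark mycelium (log2 fold change -0.44 with SE 0.235, edgeR adjusted p = 0.133, and log2 fold change -0.46 with SE 0.235, edgeR adjusted p = 0.107). The vegetative pool was lowest (log2 fold change 1.38 with SE 0.264, edgeR adjusted p = 0.00379, sexual mycelium against the pool). The protoapothecium call against the pool (log2 fold change 0.95 with SE 0.244, edgeR adjusted p = 0.00666) was lost without vegetative pool 1 (edgeR adjusted p = 0.0765). The other 3, PCON_04224, PCON_08361 and PCON_11580, ranged from 0.85 to 13.7 CPM over all libraries. PCON_04224 was higher in protoapothecia than in each mycelium (log2 fold change 2.33 with SE 0.619, edgeR adjusted p = 0.00784, against dark mycelium). That call was lost without dark mycelium 1 (edgeR adjusted p = 0.0685), the one against sexual mycelium without protoapothecia C or either sexual mycelium library (edgeR adjusted p = 0.0542 to 0.149) and the one against the pool without vegetative pool 1 (edgeR adjusted p = 0.0528). Against dark mycelium its log2 fold change was 3.06 without dark mycelium 2. PCON_08361 was lower in sexual than in dark mycelium (log2 fold change -2.20 with SE 0.491, edgeR adjusted p = 0.00788), and PCON_11580 higher (log2 fold change 2.25 with SE 0.488, edgeR adjusted p = 0.00687). The first was lost without dark mycelium 2 or sexual mycelium 2 (edgeR adjusted p = 0.0747 to 0.0813) and the other without dark mycelium 2 (edgeR adjusted p = 0.0744).

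PCON_08361 lies 5529 bases from PCON_08362, described as trichodiene synthase, the first committed enzyme of trichothecene synthesis. That gene stood at 0.0498, 0 and 0.0989 CPM in protoapothecia, 14.5 and 7.35 in sexual mycelium, 0 and 0.0645 in dark mycelium, and 0 and 0.262 in the vegetative pool. Sexual mycelium alone had more than 4 counts, so the gene and its P450 neighbour had different orders of groups (log2 fold change -7.24 with SE 0.984, edgeR adjusted p = 0.000215, protoapothecia against sexual mycelium, for PCON_08362). Without protoapothecia C its log2 fold change was -7.84. Of the stcF-like genes, named after an Aspergillus nidulans enzyme of sterigmatocystin synthesis, PCON_12910 stood at 10.1, 5.77 and 5.93 CPM in protoapothecia, 14.3 and 11.2 in sexual mycelium, 33.8 and 23 in dark mycelium, and 4.39 and 5.23 in the vegetative pool. Dark mycelium was highest (log2 fold change -1.95 with SE 0.361, edgeR adjusted p = 0.00102, protoapothecia against dark mycelium). A second trichodiene synthase, PCON_12909, lies 3279 bases away and stood at 0.846, 0 and 1.29 CPM in protoapothecia, 4.51 and 2.55 in sexual mycelium, 10 and 9.36 in dark mycelium, and 1.51 and 1.9 in the vegetative pool. It too was highest in dark mycelium. PCON_07164 stood at 3.29, 1.28 and 16.5 CPM in protoapothecia, 111 and 60.3 in sexual mycelium, 13.7 and 6.06 in dark mycelium, and 10.4 and 19.3 in the vegetative pool. Sexual mycelium was highest and protoapothecium C lay above A and B (log2 fold change -3.54 with SE 0.831, edgeR adjusted p = 0.00498, protoapothecia against sexual mycelium). Its log2 fold change was -5.03 without protoapothecia C. These synthases and PCON_08741 were named after their values were seen.

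The 7 genes described as cytochrome P450 67, a name that gives no substrate, included the leading P450 gene of the series. PCON_06415 (scaffold 257, 15711 to 17600, plus strand, 2 exons) stood at 5379, 5330 and 5004 CPM in protoapothecia, 127 and 113 in sexual mycelium, 19 and 23.4 in dark mycelium, and 17 and 13.7 in the vegetative pool. Protoapothecia exceeded sexual mycelium (log2 fold change 5.45 with SE 0.287, edgeR adjusted p = 3.6e-06), and sexual mycelium exceeded dark mycelium (log2 fold change 2.50 with SE 0.258, edgeR adjusted p = 0.000156) and the vegetative pool (log2 fold change 2.96 with SE 0.263, edgeR adjusted p = 8.4e-05). The 3 levels did not overlap. PCON_11257 stood at 175, 219 and 228 CPM in protoapothecia, 58.1 and 102 in sexual mycelium, 4.18 and 6.71 in dark mycelium, and 6.09 and 8.63 in the vegetative pool. Protoapothecia were again highest and sexual mycelium next, with both vegetative groups low (log2 fold change 5.25 with SE 0.4, edgeR adjusted p = 5.17e-06, protoapothecia against dark mycelium), and its call against sexual mycelium (log2 fold change 1.37 with SE 0.322, edgeR adjusted p = 0.0051) was lost without sexual mycelium 1 (edgeR adjusted p = 0.0555). PCON_04348 stood at 2.84, 2.78 and 3.71 CPM in protoapothecia, 275 and 123 in sexual mycelium, 0.135 and 0.258 in dark mycelium, and 4.54 and 3.34 in the vegetative pool. Only the sexual mycelium libraries were high, with library 1 above library 2 (log2 fold change -5.98 with SE 0.396, edgeR adjusted p = 5e-06, protoapothecia against sexual mycelium, and log2 fold change 9.93 with SE 0.601, edgeR adjusted p = 1.35e-05, sexual against dark mycelium). Without sexual mycelium 1 these log2 fold changes were -5.29 and 9.24.

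Of the others of this name, PCON_03716 and PCON_12801 were highest in vegetative mycelium. PCON_03716 stood at 0.896, 2.78 and 3.91 CPM in protoapothecia, 1.01 and 1.39 in sexual mycelium, 15.8 and 27.8 in dark mycelium, and 83.4 and 117 in the vegetative pool. The vegetative pool was highest and dark mycelium next (log2 fold change -5.32 with SE 0.559, edgeR adjusted p = 3.41e-05, protoapothecia against the pool). Its log2 fold change was -6.02 without protoapothecia C. PCON_12801 stood at 65, 59.5 and 80.8 CPM in protoapothecia, 56.6 and 45.3 in sexual mycelium, 241 and 188 in dark mycelium, and 193 and 207 in the vegetative pool. Both vegetative groups lay above protoapothecia and sexual mycelium (log2 fold change -1.65 with SE 0.219, edgeR adjusted p = 0.000134, protoapothecia against dark mycelium). PCON_02778 stood at 71, 105 and 71.4 CPM in protoapothecia, 25.8 and 27.1 in sexual mycelium, 80 and 97.4 in dark mycelium, and 89.1 and 95.7 in the vegetative pool. Sexual mycelium was lowest (log2 fold change 1.64 with SE 0.249, edgeR adjusted p = 0.000405, protoapothecia against sexual mycelium), and protoapothecium B lay above every other library. The remaining gene, PCON_04460, was among those near 0.

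Of the 8 genes that carry the name of an animal or plant P450, 7 were tested. Against sexual mycelium, dark mycelium and the vegetative pool, 6, 5 and 6 of them were higher in protoapothecia, and none was lower. The shares of all genes in this order were 26.7% higher and 34.5% lower, 36.4% and 32.8%, and 34.8% and 34.4%. PCON_03426, named after a plant enzyme, stood at 131, 63.3 and 111 CPM in protoapothecia, 28.5 and 44.3 in sexual mycelium, 0.943 and 0.387 in dark mycelium, and 0.236 and 0.327 in the vegetative pool. It was near 0 in both vegetative groups (log2 fold change 7.25 with SE 0.557, edgeR adjusted p = 5.32e-06, protoapothecia against dark mycelium). Without dark mycelium 1 that log2 fold change was 8.03. Its call against sexual mycelium (log2 fold change 1.49 with SE 0.39, edgeR adjusted p = 0.00881) was lost without sexual mycelium 1 (edgeR adjusted p = 0.0875). PCON_04255, of 212 residues, stood at 105, 50.9 and 141 CPM in protoapothecia, 11.5 and 19.3 in sexual mycelium, 2.56 and 3.81 in dark mycelium, and 3.02 and 3.4 in the vegetative pool. Protoapothecia were highest and sexual mycelium next (log2 fold change 2.69 with SE 0.458, edgeR adjusted p = 0.000818, protoapothecia against sexual mycelium). PCON_03671 stood at 129, 237 and 168 CPM in protoapothecia, 25.4 and 22.6 in sexual mycelium, 3.03 and 5.87 in dark mycelium, and 34.6 and 20 in the vegetative pool. Dark mycelium was lowest (log2 fold change 5.32 with SE 0.467, edgeR adjusted p = 1.12e-05, protoapothecia against it).

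PCON_10330 stood at 31.5, 27.8 and 25.7 CPM in protoapothecia, 1.06 and 1.42 in sexual mycelium, 2.63 and 3.48 in dark mycelium, and 5.53 and 5.49 in the vegetative pool. Sexual mycelium was lowest (log2 fold change 4.50 with SE 0.382, edgeR adjusted p = 1.43e-05, protoapothecia against it). PCON_14204, with the same description after a Caenorhabditis elegans P450, stood at 111, 137 and 87.5 CPM in protoapothecia, 22.6 and 15.2 in sexual mycelium, 46 and 43.8 in dark mycelium, and 21.4 and 30.1 in the vegetative pool. Protoapothecia again lay above every mycelium library (log2 fold change 2.56 with SE 0.307, edgeR adjusted p = 0.000102, against sexual mycelium). PCON_01613 stood at 233, 195 and 164 CPM in protoapothecia, 136 and 125 in sexual mycelium, 177 and 174 in dark mycelium, and 128 and 154 in the vegetative pool. It varied little between groups, and its call against sexual mycelium (log2 fold change 0.59 with SE 0.214, edgeR adjusted p = 0.0366) was lost without protoapothecia A, either sexual mycelium library, either dark mycelium library or either vegetative pool library (edgeR adjusted p = 0.0549 to 0.176). PCON_12596 ranged from 1.42 to 11.2 CPM over all libraries and was highest in sexual mycelium. PCON_02747, a model of 124 residues with a P450 domain and no described function, stood at 89.1, 66.7 and 82.8 CPM in protoapothecia, 3.41 and 2.47 in sexual mycelium, 0.674 and 1.94 in dark mycelium, and 0.331 and 0.916 in the vegetative pool. The protoapothecium libraries lay far above the others (log2 fold change 4.76 with SE 0.524, edgeR adjusted p = 6.44e-05, against sexual mycelium).

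Between the mycelia, P450 genes were more evenly split. Sexual mycelium had 15 members higher and 17 lower than dark mycelium, where 20.6% of all genes were higher and 9% lower. It had 18 higher and 14 lower than the vegetative pool (19.8% and 9.48% of all genes). Dark mycelium had 7 higher and 4 lower than the vegetative pool (1.79% and 3.41% of all genes). The median log2 fold change of the members was -0.09, 0.37 and 0.10 in this order, beside 0.08, 0.04 and -0.02 over all genes. Among the genes lower in sexual than in dark mycelium were 6 of the 8 ent-kaurene oxidases and 3 of the 7 pisatin demethylases, while PCON_06415, PCON_08024, PCON_04348 and PCON_02777 were higher. Counts of lower genes against dark mycelium dropped to 10 without dark mycelium 2 and to 11 without sexual mycelium 1 or 2, and the 18 higher genes against the vegetative pool became 10 without vegetative pool 1. The 7 and 4 calls between the vegetative groups fell to 1 or 2 and 0 to 2 without any 1 of their own libraries, and the lower calls to 2 without sexual mycelium 1 or 2.

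Genes beside a P450 gene on its scaffold were compared with it by call. Within 3 genes on either side of a called member, 46 of 158 pairs of a member and a neighbour (29.1%) had the same call in protoapothecia against sexual mycelium. A gene beside 2 members counted for each, here and in the neighbour counts under other settings. The counts were 64 of 170 (37.6%) for dark mycelium and 61 of 179 (34.1%) for the vegetative pool. Between mycelia, 35 of 144 (24.3%), 35 of 149 (23.5%) and 1 of 50 (2%) did. Without sexual mycelium 1 or 2 the first count became 27 or 30, without dark mycelium 2 the next became 39 and without vegetative pool 1 the third became 39. The 35 in sexual against dark mycelium became 17 to 23 without any 1 of their libraries, the 35 against the pool became 22 without vegetative pool 1, and the 1 became 0 without any 1 of the 4 vegetative libraries and 2 or 3 without 1 protoapothecium library. A neighbour counts in the direction of its member, so each share stands beside both of the shares over all genes. Those were 26.7% higher and 34.5% lower, 36.4% and 32.8%, and 34.8% and 34.4% for protoapothecia against sexual mycelium, dark mycelium and the vegetative pool. For sexual against dark mycelium, sexual mycelium against the pool and dark mycelium against the pool they were 20.6% and 9%, 19.8% and 9.48%, and 1.79% and 3.41%. The neighbours' first 3 shares lay near or between those of all genes, the next 2 above both and the last between, and no test was made. The members lay on 44 scaffolds, and none overlapped another gene model.

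Other enzymes tied to P450 chemistry gave mixed counts. Beside them, 26.7% of all genes were higher and 34.5% lower in protoapothecia than in sexual mycelium. The shares were 36.4% and 32.8% for dark mycelium, and 34.8% and 34.4% for the vegetative pool. Of 7 listed backbone enzymes of secondary metabolism, 2 were higher and 5 lower in protoapothecia when set against sexual mycelium, 1 and 4 against dark mycelium, and 1 and 3 against the vegetative pool. The 2 higher genes became 0 without protoapothecia A or either sexual mycelium library and 1 without any 1 vegetative library, and the 5 lower became 3 without protoapothecia A or sexual mycelium 1. Against dark mycelium the 1 higher became 0 without protoapothecia A or either dark mycelium library and 2 without protoapothecia B, and the 4 lower became 2 without dark mycelium 2. Against the pool the 1 higher became 0 without either vegetative pool library and 2 without protoapothecia B. PCON_02859, a nonribosomal peptide synthetase, fell (log2 fold change -2.33 with SE 0.32, edgeR adjusted p = 0.000228, against sexual mycelium), as did another, PCON_07777 (log2 fold change -1.63 with SE 0.334, edgeR adjusted p = 0.00229). Of 18 other monooxygenases, 6 were higher and 6 lower than in sexual mycelium, 5 and 9 against dark mycelium, and 4 and 8 against the vegetative pool. PCON_10098, a phenol 2-monooxygenase, stood at 0.747, 1.07 and 0.445 CPM in protoapothecia, 32 and 74.7 in sexual mycelium, 22.4 and 33.4 in dark mycelium, and 74.1 and 31.8 in the vegetative pool. It was all but lost from protoapothecia (log2 fold change -6.29 with SE 0.582, edgeR adjusted p = 2.35e-05). Without sexual mycelium 2 its log2 fold change was -5.54. PCON_09927, an uncharacterised monooxygenase, stood at 98.8, 117 and 147 CPM in protoapothecia, 19.6 and 22.4 in sexual mycelium, 348 and 372 in dark mycelium, and 949 and 931 in the vegetative pool. It rose against sexual mycelium (log2 fold change 2.52 with SE 0.243, edgeR adjusted p = 2.86e-05), and the vegetative libraries lay above both.

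Glutathione S-transferases conjugate the oxidised products of many P450 reactions. Of 9 tested, 2 were higher and 3 lower in protoapothecia when set against sexual mycelium, 3 and 4 against dark mycelium, and 3 and 6 against the vegetative pool. The 4 became 2 without dark mycelium 1. In the same order, the shares of all genes were 26.7% and 34.5%, 36.4% and 32.8%, and 34.8% and 34.4%. The microsomal transferase PCON_01201 stood at 1076, 1155 and 1678 CPM in protoapothecia, 38.1 and 62.7 in sexual mycelium, 39.7 and 33.2 in dark mycelium, and 41.9 and 51.9 in the vegetative pool. It lay far above every mycelium library (log2 fold change 4.69 with SE 0.361, edgeR adjusted p = 9.15e-06, against sexual mycelium), as did PCON_13035, a kappa transferase (log2 fold change 3.67 with SE 0.283, edgeR adjusted p = 9.15e-06). PCON_09986, glutathione S-transferase 1, fell to below 1 CPM (log2 fold change -4.41 with SE 0.447, edgeR adjusted p = 3.86e-05).

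In the authors' deposited table, a consensus call of 1 was given to 21 of the 50 members and -1 to 5 for protoapothecia against sexual mycelium. The authors' deposited table gave 22 and 7 against dark mycelium, and 26 and 6 against the vegetative pool. Over all genes the same columns of the authors' deposited table hold 14.6% and 28%, 27.6% and 21.6%, and 25.6% and 24.4%. For sexual against dark mycelium, sexual mycelium against the pool and dark mycelium against the pool, the authors' deposited table gave 16 and 11, 19 and 13, and 6 and 7 members. Over all genes the same columns of the authors' deposited table hold 22.1% and 5.04%, 21.1% and 6.6%, and 3.43% and 6.27%.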

How the data were processed

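Per the file headers, the deposited table holds unnormalised read counts of 9 libraries and, as a score of -1, 0 or 1, the authors' consensus call of each comparison. It also gives gene model lengths and positions. The submitters' processing notes name CASAVA 1.8.2 and DESeq. Which aligner, counter, build and strand setting were used is not given in the sources used here. The scaffold positions printed come from the deposited table and were the same in the reference table of assembly Pcon_v1 for all 50 members. No other per-sample columns were found (0).

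The P450 genes and the lists were chosen with earlier results of these data known. Genes passed edgeR's filterByExpr (minimum count 10, minimum total 15), which left 11787. In R 4.3.3 with edgeR 4.0.16, 1 TMM-scaled fit over the 4 groups (5 residual degrees of freedom) underwent two-sided robust quasi-likelihood tests, without a replicate block. P-values were adjusted by Benjamini-Hochberg, at a threshold of 0.05. The scripts were tested on simulated data. A level of 3 counts is 0.642 CPM in protoapothecia B and 0.112 to 0.202 CPM elsewhere.

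Values in every library were given for the 41 members whose mean reached 10 CPM in a group and an adjusted p below threshold in a comparison. From each other list, 3 genes with the smallest adjusted p in protoapothecia against sexual mycelium were named. Neighbours within 3 genes that shared a call came to 98 and are given as counts, other than the stretch on scaffold 604. Of other neighbours, PCON_08025, PCON_08362, PCON_08741 and PCON_12909 are named, chosen after their values were seen. Matches naming another protein were left out of the lists after reading descriptions alone: 17 of 25 for electron donors, 1 of 8 for backbone enzymes and 6 of 16 for glutathione S-transferases. Alternatives used RLE scaling, no filter, DESeq2 1.42.0, limma-voom (limma 3.58.1), a test against a 2-fold change, the compared groups alone, thinned counts, other membership, each library left out, and a replicate block. No promoter, protein or other sequence was used here.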

Additional observations from a re-analysis of the deposited data

How the results depend on the processing

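Of 165 calls of a member in a comparison, 111 held in every alternative, 54 were lost in at least 1, and 0 changed sign. Leaving out each library in turn kept 117 of the 165. It gave 20 to 29, 23 to 27 and 23 to 30 higher and 5 to 7, 9 to 11 and 6 to 9 lower members for protoapothecia against sexual mycelium, dark mycelium and the vegetative pool. The mycelium comparisons gave 10 to 17, 10 to 20 and 1 to 7 higher and 10 to 18, 11 to 15 and 0 to 6 lower (sexual against dark, sexual against pool, dark against pool). In the same order of all 6 comparisons, the genes of the other lists called were 32 to 42, 30 to 40, 31 to 39, 7 to 16, 10 to 23 and 0 to 7, and the neighbours with the same call 27 to 45, 39 to 72, 39 to 65, 17 to 47, 22 to 38 and 0 to 3.

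A test against a 2-fold change left 4 lower members in protoapothecia against sexual mycelium, 11 lower in sexual against dark mycelium, and 1 higher and 1 lower between the vegetative groups. It left 23, 24, 23, 6, 9 and 3 list genes and 25, 36, 33, 21, 20 and 0 neighbours in the 6 comparisons. With the compared groups alone, sexual against dark mycelium had 54 neighbours, and the vegetative groups had 8 lower members, 15 list genes and 15 neighbours. DESeq2 gave 10 list genes and 5 neighbours between the vegetative groups. A window of 1 gene on either side gave 14, 26, 28, 16 and 13 neighbours in the first 5 comparisons, and 5 genes gave 77, 102, 102, 55, 57 and 5 in all 6. The windows hold fewer and more genes by construction, and a 2-fold test is stricter by construction. For the other changes the cause was not tested.

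The labels do not say that replicate numbers pair the mycelium libraries. Correlations of same-numbered deviations were 0.119, -0.157 and -0.0431, which with 2 libraries a group cannot exclude pairing. A replicate block gave 7 lower members, 11 list genes and 10 neighbours between the vegetative groups, and the members' other counts stayed within 1.5 times. With 2 libraries a group and 5583951 counts in protoapothecia B, low genes are the least precise.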
